A study of Saccharomyces cerevisiae with 4 samples.

Results

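The mitochondrial protein import machinery of budding yeast was followed here as 32 genes chosen by function, covering the TOM, TIM, PAM and SAM complexes, the processing peptidase and the disulfide relay of the intermembrane space. Each of the 32 had a probe set assigned to that gene alone and passed the filter on low signals, out of 5202 named genes that passed it. The signals came from 4 Affymetrix Yeast Genome S98 arrays, 2 of cells with the kinase form Snf1-I132G and 2 of cells with wild-type Snf1. Snf1 is the budding yeast member of the AMP-activated protein kinases, and the I132G form was made to be sensitive to 2NM-PP1, a pyrazolopyrimidine inhibitor. Cells of both groups grew to early log phase in SC-ura medium with 2% glucose. They then spent 120 min in 2% raffinose with 0.05% glucose, after which 25 µM 2NM-PP1 was present for 40 min. Both groups thus carried the inhibitor, and no array of untreated cells was analysed here, so the I132G allele and inhibition of the kinase cannot be told apart. The RNA of each strain was combined from 3 transformants and run in duplicate, and other strain alleles are not given in the sources used here. The labels do not tell whether the duplicates are separate cultures, so every p-value here covers only array-to-array spread, which may be technical.

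Most mitochondrial proteins are made in the cytosol and enter through the TOM complex of the outer membrane. From there the TIM23 complex and its PAM motor take proteins with a cleavable presequence to the matrix, while the TIM22 complex inserts carriers into the inner membrane. The SAM complex builds beta-barrel proteins into the outer membrane, and the MIA pathway traps small cysteine-rich proteins in the intermembrane space by oxidation. Much of the cargo consists of respiratory chain subunits and metabolite carriers, whose genes yeast expresses at higher levels when glucose is scarce. The comparison asks whether the genes of the machinery differ between cells with inhibitable and non-inhibitable Snf1.

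Values are MAS5 signals on the deposited scale. Differences are Snf1-I132G minus Snf1 on the log2(signal + 16) scale, with the standard error (SE) of limma's moderated fit over 6956 probe sets, and a gene is called at a Benjamini-Hochberg adjusted p under 0.05. The trimmed mean signal was 500.4 to 500.5 on all 4 arrays, so levels are relative to the rest of each array. The array medians were 131.9 and 139.4 in Snf1-I132G and 151.6 and 161.3 in Snf1. The SNF1 gene itself had signals of 797 and 889 in Snf1-I132G and 981 and 1015 in Snf1, a difference of -0.24 ± 0.15 (SE) that was not called (limma, adjusted p = 0.28). Because I132G is a change in the protein, the SNF1 transcript cannot serve to check the labels. Only 2 arrays per group limit the precision of every value below.

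Of the 32 import genes 5 fell in Snf1-I132G, and the other 27 were not called. The 5 were TIM9, PAM17, MIA40, SAM37 and TOM70, which belong to 5 different complexes or routes. In RNA of whole cultures a lower level in every cell and fewer cells with the transcript cannot be told apart. None rose (limma). At an unadjusted p under 0.05, 2 genes, MAS2 and ERV1, were higher and 10 were lower (limma), the 5 called ones among them. The share of all named genes at that unadjusted threshold is not given here, so these 2 counts are no result about the machinery. Among all named genes 19.9% were called lower and 9.03% higher, so the 15.6% of import genes called lower is near the background and is no result about the machinery as a whole. The median difference of the 32 genes was -0.22, against -0.16 over all named genes and -0.10 over all tested probe sets. Both Snf1-I132G arrays lay below both Snf1 arrays for 17 of the 32 genes and above them for 7, and the groups overlapped for 8. In all named genes the groups were separated downward in 45.4% and upward in 23.9%. Differences reached -1 or less, a 2-fold fall, for 3 import genes, as they did for 10.5% of named genes, and none had a 2-fold rise, which 5.67% of named genes had.

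**Figure D1:**
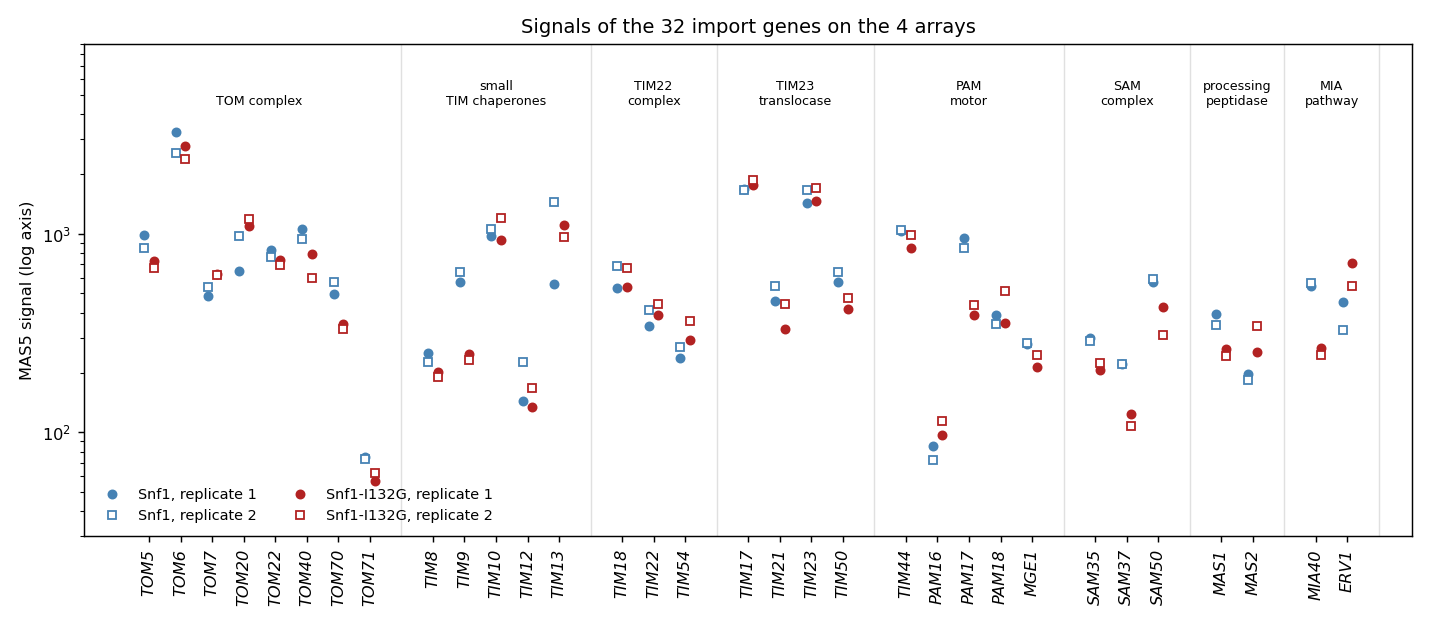
MAS5 signal (log axis) of each of the 32 import genes on the 4 arrays, in the order of the complexes, with Snf1 in blue and Snf1-I132G in red and a point for each array. The groups stand well apart for TIM9, PAM17, SAM37 and MIA40, all lower in Snf1-I132G, while most genes have groups that lie close together or overlap. Heights of different genes are not comparable, since probe sets differ in brightness.

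The same-numbered arrays of the groups share a string in their file labels. What it marks is not stated. The replicate number was also entered as a block, as an alternative. With the block 11 of the 32 genes were called lower and 3 higher (limma), and the background rose to 31.8% lower and 17.5% higher over all named genes. The differences within the pairs had the same sign for 28 of the 32 genes, and for 84.8% of all named genes. Whether the 2 arrays of a group share 1 RNA pool is not stated, so this agreement between the pairs may be of the measurement alone. Fewer import genes were called lower with either Snf1 array or replicate 2 of Snf1-I132G left out, and so were fewer of all probe sets. With any 1 array left out, the median of the 32 genes lay between -0.26 and -0.18. That of all tested probe sets lay between -0.13 and -0.063.

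At the outer membrane, TOM70 was the gene of the TOM complex that fell. It encodes the receptor for hydrophobic precursors such as the metabolite carriers. Its signals were 351 and 333 in Snf1-I132G and 498 and 569 in Snf1, so the groups did not overlap. The difference was -0.62 ± 0.16 (limma, adjusted p = 0.040), a 1.53-fold lower level. This call was the least firm of the 5, since it was lost when any of the 4 arrays was left out, with quantile normalization (adjusted p = 0.10), with median centring (0.0996) and with no filter (0.051). TOM71, the paralog of TOM70, was dim at 57.1 and 62.5 in Snf1-I132G and 75.0 and 73.7 in Snf1, and its difference of -0.25 ± 0.17 was not called.

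TOM20 encodes the receptor that binds presequences. Its signals were 1095 and 1190 in Snf1-I132G and 646 and 970 in Snf1, which puts both Snf1-I132G arrays above both Snf1 arrays. The 2 Snf1 arrays differed more from each other than the higher of them did from the lower Snf1-I132G array. The difference of 0.52 ± 0.23 was not called (limma, adjusted p = 0.15), though it was with the block (0.017). TOM22, the central receptor and organizer of the complex, stood at 736 and 698 against 831 and 764, a difference of -0.15 ± 0.15 that was not called.

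TOM40 encodes the channel itself. Its signals were 787 and 600 in Snf1-I132G and 1059 and 934 in Snf1, with no overlap. The difference of -0.52 ± 0.19 was not called (limma, adjusted p = 0.097), though it was with the block (0.0099). The small subunits differed in sign, with that of TOM6 turning to 0.013 under median centring. TOM5 was at -0.38 ± 0.16 (adjusted p = 0.14, or 0.035 with the block), TOM6 at -0.17 ± 0.19 and TOM7 at 0.28 ± 0.15, none of them called. Over the 8 TOM genes 1 fell and 7 were not called, with a median of -0.21. That is 12.5% lower, against 19.9% of all named genes, whose median was -0.16, so it is no trait of the complex.

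All 3 SAM genes had lower signals on both Snf1-I132G arrays than on either Snf1 array, a separation that 45.4% of all named genes also had. SAM37, a peripheral subunit on the cytosolic face, fell from 222 and 220 in Snf1 to 124 and 107 in Snf1-I132G. The difference was -0.85 ± 0.17 (limma, adjusted p = 0.020), or 1.81-fold lower. SAM50, the core subunit that folds beta-barrels into the membrane, had signals of 573 and 593 in Snf1 and of 428 and 308 in Snf1-I132G, so the Snf1-I132G arrays were also the more scattered ones. Its difference of -0.66 ± 0.20 was not called (limma, adjusted p = 0.061), though it was with the block (0.0085), with centring on hybridization controls (0.019) and without replicate 1 of Snf1-I132G (0.032). SAM35, which recognizes the sorting signal of beta-barrel precursors, had signals of 206 and 223 in Snf1-I132G and 297 and 290 in Snf1. Its difference was -0.42 ± 0.16 (limma, adjusted p = 0.11, or 0.044 with the block). SAM37 was not called when replicate 2 of Snf1-I132G or either Snf1 array was left out, with adjusted p-values of 0.059 to 0.12.

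The small TIM proteins are chaperones that carry hydrophobic precursors across the intermembrane space. TIM9 had the largest fall of the 32 genes on the scale used. Its signals were 571 and 638 in Snf1 and 248 and 232 in Snf1-I132G, well separated and tight within each group. The means were 240 ± 10.9 (SD, n = 2) in Snf1-I132G and 605 ± 47.5 in Snf1, and the difference was -1.28 ± 0.16 (limma, adjusted p = 0.0059), a 2.42-fold fall. TIM9 was called lower in each of the 15 alternatives tried, at -1.51 to -1.09, the only import gene for which this held.

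TIM10, which forms a hexamer with TIM9, did not share that difference. It had signals of 927 and 1194 in Snf1-I132G and 975 and 1056 in Snf1, which overlap, and differed by 0.05 ± 0.18 (limma, adjusted p = 0.84). TIM12, which docks the chaperones on the TIM22 complex, also overlapped, at 134 and 167 against 144 and 227, with a difference of -0.25 ± 0.26. TIM8 and TIM13 form another hexamer with a narrower set of cargo. TIM8 differed by -0.27 ± 0.17. TIM13 had Snf1 arrays as far apart as 557 and 1436, around Snf1-I132G arrays at 1101 and 961. Its pairs gave opposite signs, 0.96 and -0.57, so no direction can be given for TIM13.

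The TIM22 complex, which inserts carrier proteins into the inner membrane, had 3 of 3 genes not called and none at an unadjusted p under 0.05 (limma). Most named genes were not called either, with 19.9% called lower and 9.03% higher, so this is no trait of the complex. TIM22, the channel-forming insertase, had signals of 391 and 445 in Snf1-I132G and 342 and 414 in Snf1, which overlap, with a difference of 0.14 ± 0.18. TIM18, a membrane subunit, was nearly level at 537 and 674 against 534 and 690, a difference of -0.012 ± 0.20. TIM54, the large subunit facing the intermembrane space, was at 290 and 362 against 236 and 268. Its groups did not overlap, yet its difference of 0.35 ± 0.19 was not called (limma, adjusted p = 0.22).

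The 4 genes of the TIM23 translocase, the gate for proteins with a presequence, were not called either, and 1 of them, TIM50, was lower at an unadjusted p under 0.05 (limma). Since most named genes were not called, this too is no trait of the translocase. TIM23, the main channel subunit, had signals of 1464 and 1693 in Snf1-I132G and 1421 and 1651 in Snf1. Within each replicate number the groups lay closer than the replicates of a group did, and the difference was 0.04 ± 0.17. TIM17, its channel partner, stood at 1748 and 1858 against 1668 and 1650, a difference of 0.12 ± 0.14. TIM50, the receptor that hands precursors from TOM to the channel, had signals of 417 and 472 in Snf1-I132G and 574 and 639 in Snf1. These do not overlap, and the difference of -0.43 ± 0.16 was not called (limma, adjusted p = 0.10), though it was with the block (0.024) and with centring on hybridization controls (0.027). TIM21, which links the translocase to TOM and to the respiratory chain, was at -0.37 ± 0.20 (adjusted p = 0.23).

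In the PAM motor, which pulls precursors into the matrix with the help of mitochondrial Hsp70, only PAM17 was called. PAM17 takes part in assembling the J-protein pair of the motor with the translocase. Its signals were 953 and 850 in Snf1 and 389 and 438 in Snf1-I132G, on either side of a wide gap. The means were 414 ± 34.5 (SD, n = 2) in Snf1-I132G and 902 ± 72.8 in Snf1, and the difference was -1.09 ± 0.16 (limma, adjusted p = 0.0086), a 2.13-fold fall. Without replicate 1 of Snf1 the difference was -1.01 (adjusted p = 0.055), which was not called.

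That J-protein pair itself consists of PAM18, which stimulates Hsp70, and PAM16, which holds PAM18 in check. PAM16 was dim, at 97.5 and 114 in Snf1-I132G and 85.6 and 72.7 in Snf1, and its difference of 0.36 ± 0.19 was not called. PAM18 had overlapping groups, 357 and 516 against 390 and 353, and pairs of opposite sign, -0.12 and 0.53. TIM44, the anchor of Hsp70 at the channel, was at -0.18 ± 0.16, and MGE1, the nucleotide exchange factor of Hsp70, at -0.28 ± 0.17, neither of them called.

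MAS1 and MAS2 encode the 2 subunits of the matrix processing peptidase, which cuts off presequences, and their signals differed in opposite directions. MAS1 had 261 and 242 in Snf1-I132G and 392 and 346 in Snf1, a difference of -0.52 ± 0.17 (limma, adjusted p = 0.068). MAS2, which recognizes the precursor, had 253 and 341 in Snf1-I132G and 196 and 183 in Snf1, a difference of 0.59 ± 0.20 (limma, adjusted p = 0.082). Neither gene's groups overlapped, and neither was called. With the block both were, MAS1 lower (0.016) and MAS2 higher (0.020). MAS2 was also called higher without replicate 1 of Snf1-I132G (0.044), with quantile normalization (0.041) and with median centring (0.035), and MAS1 was called lower with centring on hybridization controls (0.023).

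The disulfide relay had an opposite pair as well. MIA40, the oxidoreductase that receives incoming proteins, had signals of 546 and 565 in Snf1 and of 267 and 244 in Snf1-I132G. Replicates agreed closely on both sides. The difference was -1.07 ± 0.16 (limma, adjusted p = 0.0083), or 2.10-fold lower, and it was not called without replicate 2 of Snf1 (-1.05, adjusted p = 0.056). ERV1, the sulfhydryl oxidase that reoxidizes MIA40, had signals of 714 and 546 in Snf1-I132G and 451 and 328 in Snf1, with no overlap. Its difference of 0.68 ± 0.23 was not called (limma, adjusted p = 0.079), though it was with the block (0.0032).

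ERV1 was the only import gene with several probe sets. The 3 of them all had higher signals in Snf1-I132G, and one is of the kind that more than 1 transcript can match. That brightest one gave the value above. The other two gave 0.62 ± 0.17, which was called (limma, adjusted p = 0.043), and 0.53 ± 0.27, which was not (adjusted p = 0.20).

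**Figure D2:**
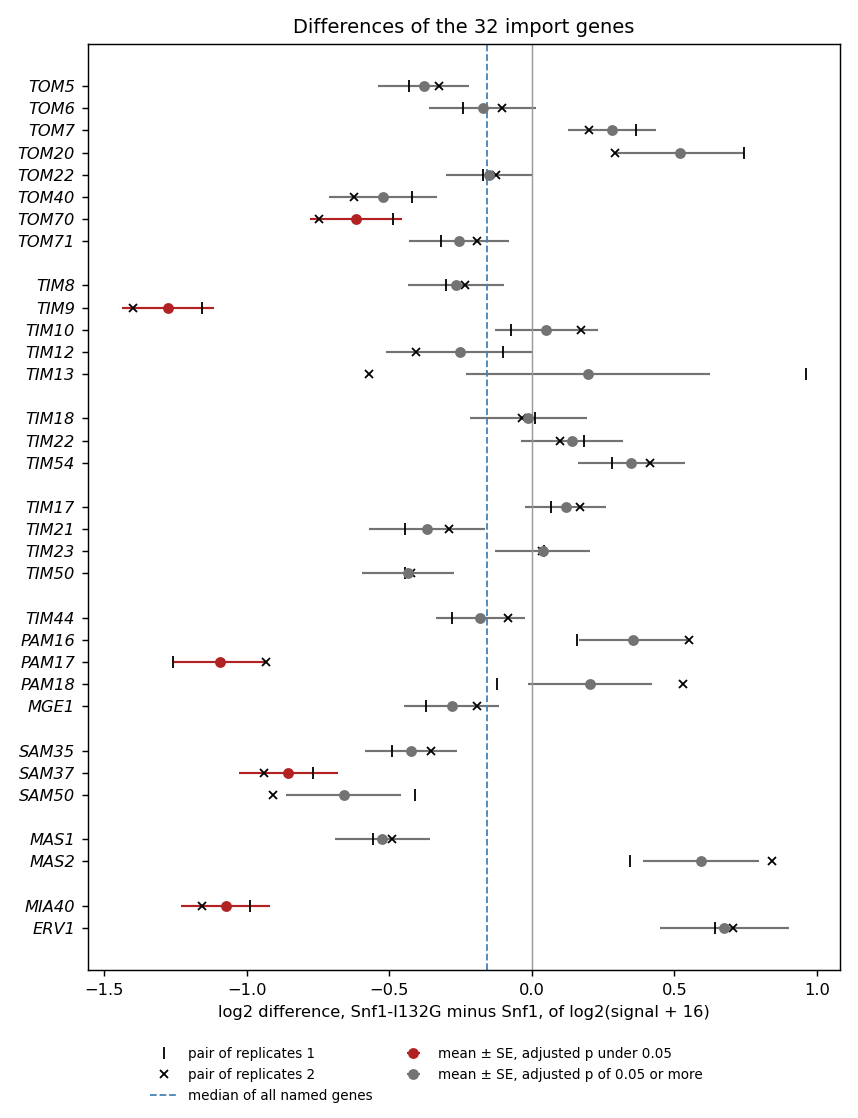
Log2 difference of each import gene, Snf1-I132G minus Snf1, with the mean and SE of the fit as point and bar, the differences within each pair of same-numbered arrays as black marks, and the median of all named genes as a dashed line. TIM9, PAM17, MIA40, SAM37 and TOM70, in red, had adjusted p-values under 0.05. MAS2 and ERV1 lie to the right of 0 at 0.59 and 0.68, opposite to MAS1 and MIA40.

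A ratio of 2 values on the same array depends little on how that array was scaled, except for dim genes such as TOM71 and PAM16, where the added 16 counts. As ratios of (signal + 16), the balance between partners was therefore compared for 10 pairs of genes that act together or are paralogs. These pairs were chosen after the values had been seen. With 2 arrays against 2 the exact permutation test (two-sided) cannot go below p = 0.333, so none of these differences can reach a threshold of 0.05 in that test, and no other test was run on them. The log2 ratio of MIA40 over ERV1 was lower in Snf1-I132G than in Snf1 by a difference of -1.75, that of TIM9 over TIM10 by -1.33 and that of MAS1 over MAS2 by -1.12. The ratio of TOM70 over TOM71 differed by -0.36, and that of SAM35 over SAM37 by 0.43. For these 5 pairs the ratios of the groups did not overlap, and each had the smallest exact p possible, 0.333 (permutation test, 0.476 adjusted over the 10 pairs). The groups overlapped for TIM17 over TIM23 (0.08), PAM16 over PAM18 (0.15) and TIM8 over TIM13 (-0.46, with an SD of 1.05 between the Snf1 arrays). Single named genes were separated downward in 45.4% and upward in 23.9%, and the share for other gene pairs is not given here. A separation is thus no result about any of the 10 pairs.

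**Figure D3:**
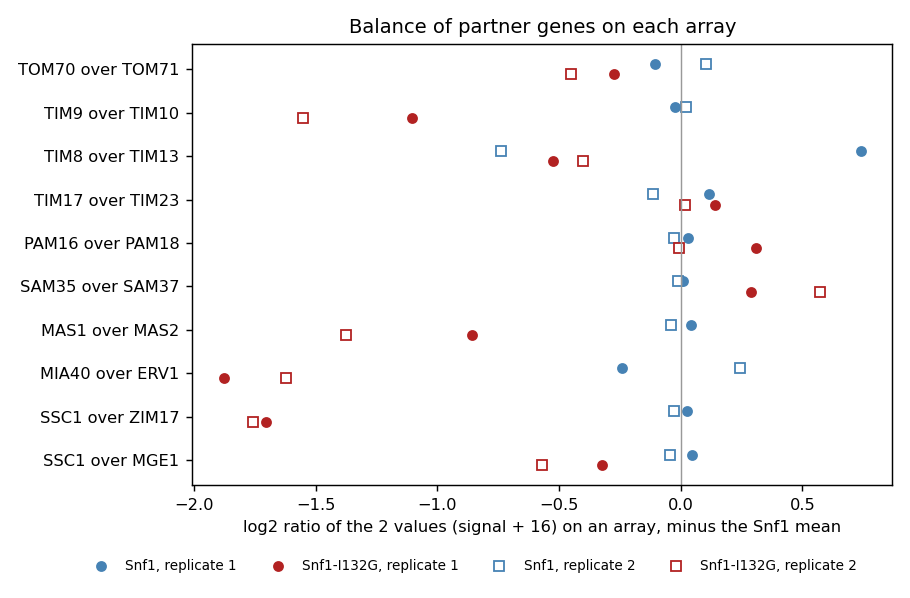
Log2 ratio of the values (signal + 16) of partner genes on each array, set to 0 at the Snf1 mean of that pair, with Snf1 in blue and Snf1-I132G in red and a point for each array. The red points lie far to the left for MIA40 over ERV1, SSC1 over ZIM17, TIM9 over TIM10 and MAS1 over MAS2, while those of TIM17 over TIM23 lie close to the blue ones.

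Other genes of the pathway were taken from a list of 27 that act with the machinery and are not among the 32. Of these 26 passed the filter, 9 fell, 2 rose and 15 were not called (limma), which is 34.6% lower and 7.69% higher against the background of 19.9% and 9.03%. The median difference was -0.45. Falls came to 14 with the block, where 31.8% of named genes were lower, and to 5 with median centring, where 815 of 6956 probe sets were. They were also fewer with either Snf1 array or replicate 2 of Snf1-I132G left out, and so were the falls over all probe sets. SSC1, the mitochondrial Hsp70 that drives the PAM motor, fell from 1178 and 1112 in Snf1 to 699 and 670 in Snf1-I132G, a difference of -0.73 ± 0.15 (limma, adjusted p = 0.019). SSC1 was not called with median centring (-0.54, adjusted p = 0.058), nor when replicate 1 of Snf1 (0.13), replicate 2 of Snf1 (0.098) or replicate 2 of Snf1-I132G (0.056) was left out.

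The further genes named from that list, apart from SDH3, SDH4, OXA1 and MDM10, were chosen after their values were seen. ZIM17, which keeps SSC1 soluble, rose from 230 and 225 in Snf1 to 473 and 470 in Snf1-I132G. Its replicates were nearly identical in both groups, and the difference was 1.0 ± 0.15 (limma, adjusted p = 0.0094), a 2.00-fold rise. The log2 ratio of SSC1 over ZIM17 accordingly differed by -1.73, and that of SSC1 over MGE1 by -0.45, without overlap and at the smallest exact p possible (permutation test, 0.333). HOT13, a zinc-binding protein that keeps MIA40 active, was the other gene that rose, at 265 and 204 in Snf1-I132G against 120 and 109 in Snf1, a difference of 0.93 ± 0.20 (adjusted p = 0.022). Without either of the Snf1 arrays neither ZIM17 (adjusted p = 0.056 and 0.063) nor HOT13 (0.084 and 0.12) was called, and HOT13 was not called without replicate 1 of Snf1-I132G (0.056).

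Of the 7 other genes for peptidases that act during or after import, or for a factor of one, 3 fell and 4 were not called. That is 42.9% lower against 19.9% of all named genes, with a median of -0.69 against -0.16. CYM1, which degrades freed presequences, was at -1.26 ± 0.18, PCP1, the rhomboid protease of the inner membrane, at -1.17 ± 0.17 and SOM1, a factor of the inner membrane peptidase, at -0.79 ± 0.16 (limma, adjusted p = 0.0074, 0.0079 and 0.019). Among the matrix chaperones MDJ1, a J protein that works with SSC1, fell by 1.05 ± 0.17 (adjusted p = 0.0098). MIM1, needed to insert outer membrane proteins with helical anchors, fell by 0.60 ± 0.15 (0.035), and MBA1, a ribosome receptor of the inner membrane, by 0.94 ± 0.21 (0.024). MIM2, listed with MIM1 for the outer membrane, went the other way, at 1234 and 1149 in Snf1-I132G against 910 and 787 in Snf1. Its difference of 0.49 ± 0.16 was not called (limma, adjusted p = 0.072), though it was with the block (0.011). CYM1 and PCP1 were called in each alternative. MIM1 was not called when any of the 4 arrays was left out, SOM1 and MBA1 not without either Snf1 array or replicate 2 of Snf1-I132G, and MDJ1 not without replicate 2 of Snf1 (adjusted p = 0.064). Median centring also ended the calls of SOM1 (0.050), MIM1 (0.13) and MBA1 (0.060), and quantile normalization that of MBA1 (0.071).

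SDH3 and SDH4 encode the membrane subunits of succinate dehydrogenase. In yeast the SDH3 protein also serves in the TIM22 complex, and TIM18 is a paralog of SDH4. SDH3 fell from 2323 and 2763 in Snf1 to 667 and 792 in Snf1-I132G, a difference of -1.78 ± 0.17 (limma, adjusted p = 0.0035). SDH4 fell from 9028 and 8671 to 3609 and 2717, a difference of -1.49 ± 0.19 (adjusted p = 0.0060). TIM18 and TIM22, at -0.012 and 0.14 on the same scale, were not called, as given above.

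OXA1, the insertase for proteins entering the inner membrane from the matrix, overlapped at 971 and 1026 against 1040 and 978, a difference of -0.015 ± 0.15. MDM10, an outer membrane barrel that joins the SAM complex, was dim at 22.5 to 33.3 and did not pass the filter. The 6 cytosolic factors on the list, chaperones and nascent chain proteins that deliver precursors, had none called and none at an unadjusted p under 0.05 (limma), with a median of -0.013. Among all named genes, most of which were not called, 19.9% were called lower and 9.03% higher.

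Beside their cargo, the 32 import genes had a far smaller median difference than the subunits of the respiratory chain and ATP synthase. Of 32 such nuclear genes 30 fell, or 93.8% against 19.9% of all named genes, with a median of -1.15 and a range of -2.42 to -0.59, whereas the import genes ranged from -1.28 to 0.68. Even without either of the Snf1 arrays 19 of the respiratory genes were called lower, against 2 import genes. The listed cargo of the MIA pathway had 9 of 14 genes lower and none higher (limma, also none at an unadjusted p under 0.05). Its median was -0.78, with 64.3% lower against that 19.9%. This list leaves out the 5 small TIM genes, which stand among the import genes. Of those 1 fell and 4 were not called, with a median of -0.25, so the share is that of the listed genes only. Falls in the MIA cargo list came to 5 with median centring, where 815 of 6956 probe sets were lower. They were also fewer with either Snf1 array or replicate 2 of Snf1-I132G left out, and so were the falls over all probe sets. COX12 and QCR6 stand in both of these lists. The listed metabolite carriers went both ways, with 7 higher and 8 lower of 30 and a median of 0.07. That is 23.3% higher and 26.7% lower, against 9.03% and 19.9% of all named genes. Most of them are cargo of the TOM70 and TIM22 route, but the list also holds ANT1, a carrier of peroxisomes, at -0.18 and not called. Among the carriers, too, falls were fewer with either Snf1 array left out, as they were over all probe sets. The differences between these lists and the import genes were not tested, since list members are not replicates.

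**Figure D4:**
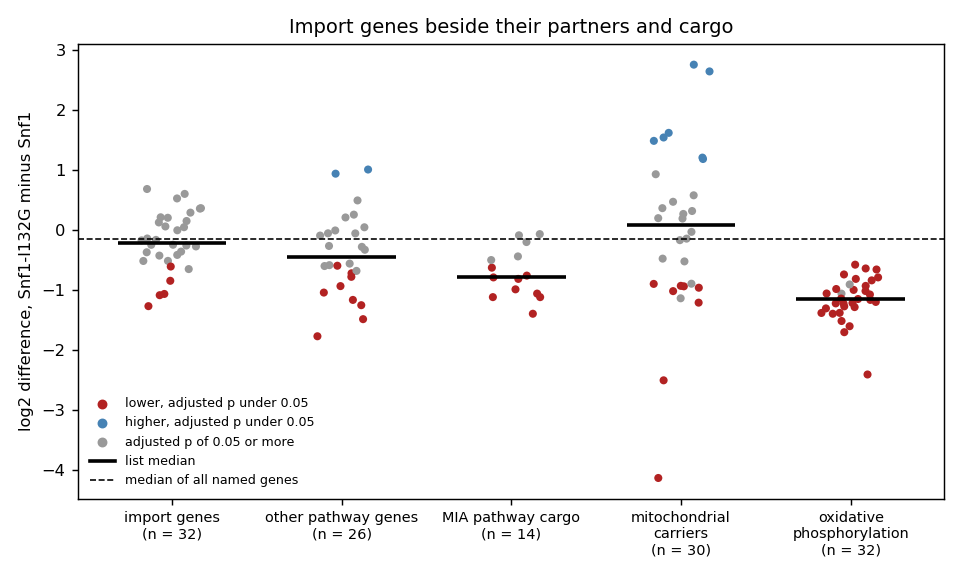
Log2 difference, Snf1-I132G minus Snf1, of each tested gene of 5 lists, with red and blue for genes called lower and higher at an adjusted p under 0.05, black bars for list medians and a dashed line for the median of all named genes. The 32 import genes centre on -0.22 with 5 red points, while the oxidative phosphorylation genes centre on -1.15 with 30 red points.

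The centre of the import genes depended on the scaling of the arrays. As deposited, the 6956 tested probe sets had a median of -0.10 and the 32 genes one of -0.22. Quantile normalization put these at 0.024 and -0.084. Median centring put them at 0.087 and -0.032, and centring on hybridization controls at -0.33 and -0.45. Centring subtracts a constant from every gene of an array, so it leaves the gap of -0.12 between these medians as it was, and with quantile normalization the gap was -0.11. The gap depended on the set compared. It was -0.059 against 1 probe set per named gene, the way the import genes were taken, and -0.18 against all probe sets with no filter. Centring on hybridization controls gave 11 import genes called lower, the added ones being TOM5, TOM40, TIM50, SAM35, SAM50 and MAS1. With it 2114 of all 6956 probe sets were lower too. Quantile normalization and median centring each gave 4 import genes lower and 1 higher, the higher gene being MAS2. Over all 6956 probe sets quantile normalization gave 914 lower and 828 higher, and median centring 815 lower and 960 higher.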

How the data were processed

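Transcripts were measured on 4 arrays, 2 per group. The authors deposited 1 signal intensity per probe set, not log-transformed, and the submitters' processing notes name MAS5 as the tool. Detection calls were not used, and neither the MAS5 version nor its scaling target is given in the sources used here. Groups and replicate numbers come from the sample titles. Of 9335 probe sets 60 are controls. Of the 9275 others 6504 had 1 gene in the platform annotation, 328 several and 2443 none, and only the 6504 were named. Every symbol was found in the R64 table of RefSeq genes. No coordinates and no sequences are printed.

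Signals were taken as log2(signal + 16). Probe sets whose mean on this scale reached the 25th percentile were kept, which left 6956. The groups were compared in R 4.3.3 with limma 3.58.1, by lmFit and an intensity-trended eBayes without covariates. P-values were Benjamini-Hochberg adjusted over all 6956, at a threshold of 0.05. Residual degrees of freedom were 2, or 1 with the block. Where a gene had several probe sets, the brightest by mean stood for it. The fit was also tested on simulated data. The 15 alternatives were other scalings, pseudocounts, filters and variance models, 1 probe set per gene, the replicate block and leaving out each array, where the lone array is assumed to vary like the other group.

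Arrays with the same number deviated from their group means together, at r = 0.515 across probe sets. With a string shared in the file labels, whose meaning is not stated, this led the numbers to be read as pairs, which is not certain. That reading was used for the block alternative and the differences within pairs. The main fit, which gave the calls, has no term for it.

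The import genes and all other lists were chosen with earlier results of these data known. All 32 import genes are named. Of the other pathway genes the rule named the 2 with the largest difference and SSC1, OXA1, SDH3, SDH4 and MDM10.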

Additional observations from a re-analysis of the deposited data

How the results depend on the processing

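The 5 calls among the import genes kept their direction in all 15 alternatives, TIM9 passed in all 15, PAM17 and MIA40 in 14, SAM37 in 12 and TOM70 in 8. Import genes called lower numbered 11 with the replicate block and 11 with centring on hybridization controls. Those called higher numbered 3 with the replicate block, 1 with quantile normalization and 1 with median centring. The replicate block ended no call of an import gene. Over all probe sets it gave 1354 higher and 1984 lower, against 709 and 1212 without it, and centring on hybridization controls gave 2114 lower. Quantile normalization gave 828 probe sets higher and median centring 960. The median of the import genes was -0.084 with quantile normalization, -0.032 with median centring and -0.45 with centring on hybridization controls. Leaving out 1 array gave 0 to 1 import genes higher and 2 to 5 lower, and 325 to 664 probe sets higher and 451 to 1069 lower.

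Signs turned only for genes that were not called. With quantile normalization TIM18 was at 0.15 and OXA1 at 0.11, and the median of all probe sets at 0.024. With median centring TOM6 was at 0.013, TOM22 at 0.036, TIM18 at 0.17, TIM44 at 0.0045 and OXA1 at 0.17, and the median of all probe sets at 0.087. Centring on hybridization controls put TIM10 at -0.18, TIM13 at -0.037, TIM22 at -0.091, TIM17 at -0.12, TIM23 at -0.19 and PAM18 at -0.029. Leaving out 1 array gave -0.35 to 0.0054 for TOM6, -0.13 to 0.23 for TIM10, -0.55 to 0.047 for TIM12, -0.47 to 0.87 for TIM13, -0.19 to 0.17 for TIM18, -0.068 to 0.15 for TIM23, -0.052 to 0.46 for PAM18 and -0.059 to 0.028 for OXA1. The cause of these turns was not tested. The alternatives for the other pathway genes, the cargo lists and the partner ratios were added after seeing the data.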
